A study of Mus musculus with 8 samples.

Results

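The TNF superfamily is a family of trimeric cytokines and the receptors that bind them, and it was described here through 37 genes, taken from the 18194 genes that had a probe set of their own. The members were every gene whose single annotated symbol starts with Tnfsf or Tnfrsf and a number, together with *Tnf*, *Lta*, *Ltb*, *Ltbr*, *Fas*, *Fasl*, *Cd40*, *Cd40lg*, *Cd27* and *Cd70*. They comprised 13 ligands, 23 receptors and 1 RNA, *Tnfsf13os*, which is read from the strand opposite *Tnfsf13* and encodes no ligand. Hypothalamus RNA came from 4 *Nestin-Pex5*-/- mice and 4 wild type mice, all 10 weeks old and bred on a Swiss Webster background. Each mouse gave 1 whole-genome Affymetrix GeneChip array, a chip on which short probes grouped into probe sets read the amount of each transcript. In *Nestin-Pex5*-/- mice a Cre recombinase under the *Nestin* promoter removes the floxed *Pex5* gene, which encodes the import receptor for the enzymes of the peroxisome matrix. *Nestin*-Cre acts in the progenitors of neurons, astrocytes and oligodendrocytes, so microglia, which arise from another lineage, and blood cells are outside its reach. Whether the wild type mice carried the floxed allele or the Cre transgene is not given in the labels. The comparison asked how transcripts of the hypothalamus, a region that is easily dissected, differ when peroxisomes of neural cells are lost.

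TNF, the founding member, is released early by activated microglia and macrophages. It binds a widely expressed receptor that carries a death domain (TNFR1, gene *Tnfrsf1a*) and a receptor without this domain (TNFR2, gene *Tnfrsf1b*). Receptors of the family recruit TRAF adaptors and switch on the transcription factor NF-kB, and those with a death domain can start apoptosis through caspase-8. Other members steer lymphocytes, among them BAFF (gene *Tnfsf13b*), a survival factor of B cells, and its receptors TACI (*Tnfrsf13b*), BAFF receptor (*Tnfrsf13c*) and BCMA (*Tnfrsf17*).

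Values are on the log2 scale that the deposited table uses, where a step of 1 is a doubling. Each gene was read from its brightest probe set, judged by the mean of all 8 arrays. A gene was called higher or lower in *Nestin-Pex5*-/- hypothalamus at an adjusted p under 0.05 from limma, with the adjustment of Benjamini and Hochberg over all 18194 genes. Wild type arrays are numbered 1 to 4 and *Nestin-Pex5*-/- arrays 7 to 10, as in the labels. *Pex5* itself was at 8.62, 8.68, 8.63 and 8.70 in the wild type arrays and at 8.76, 8.68, 8.58 and 8.66 in the *Nestin-Pex5*-/- arrays. These values overlapped (log2 fold change 0.011, adjusted p = 0.946 from limma). It is not known whether the deleted exons are read by this probe set, so it does not check the labels. The leading principal component, 49.3% of the variance, set the genotypes apart, and wild type replicate 4 stood apart from the other arrays on the next, with 18.7% (at -29.1, with the remaining wild type arrays at 5.07 to 9.98). Transcripts of hypothalamic neurons such as *Avp* (11.52 in both genotypes), *Pmch* (12.64 and 12.51) and *Hcrt* (10.59 in wild type) were bright, as the tissue label calls for. They speak for the tissue only and not for equal levels in the genotypes. Over 15 such genes the median log2 fold change was -0.21, with a range of -0.42 to 0.0037, and none was called. Of the 37 main probe sets of the family, 33 had a mean below 7.75, the median over genes, and how much of such a dim value is background was not measured. The array records the RNA of the whole tissue, so more cells of a type and more RNA per cell cannot be told apart.

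In *Nestin-Pex5*-/- hypothalamus 3 members of the family rose, each with all 4 arrays above the wild type arrays. They were the receptors *Tnfrsf13b* (2.28-fold) and *Tnfrsf1a* (1.91-fold) and the ligand *Tnfsf13b* (1.49-fold). This is 8.11% of the members, where 3.98% of all genes tested were called higher. No member was called lower by limma, while 0.791% of all genes were, and the equal-variance test also called none. At an unadjusted p under 0.05, 10 members (27.0%) were higher and 2 (5.41%) were lower, where 8.85% and 8.01% of all genes were. The median log2 fold change of the members was 0.06 and that of all genes -0.03. The 34 other members lay between 0.801-fold and 1.36-fold, and the 95% intervals of their folds reached from 0.652 to 1.61. Of these intervals 25 included no change, 7 lay above it and 2 below it. On the main probe sets, a measured change of the size seen in *Tnfrsf1a* therefore lay outside the interval of every one of the 34. Most of these probe sets were dim, so the intervals do not bound the change of the transcripts themselves. Other probe sets are not covered, and a dimmer one of *Tnfrsf11b* was at 1.67-fold with wide spread. The plot of log2 fold changes by class shows the 3 called members apart from the rest.

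**Figure D1:**
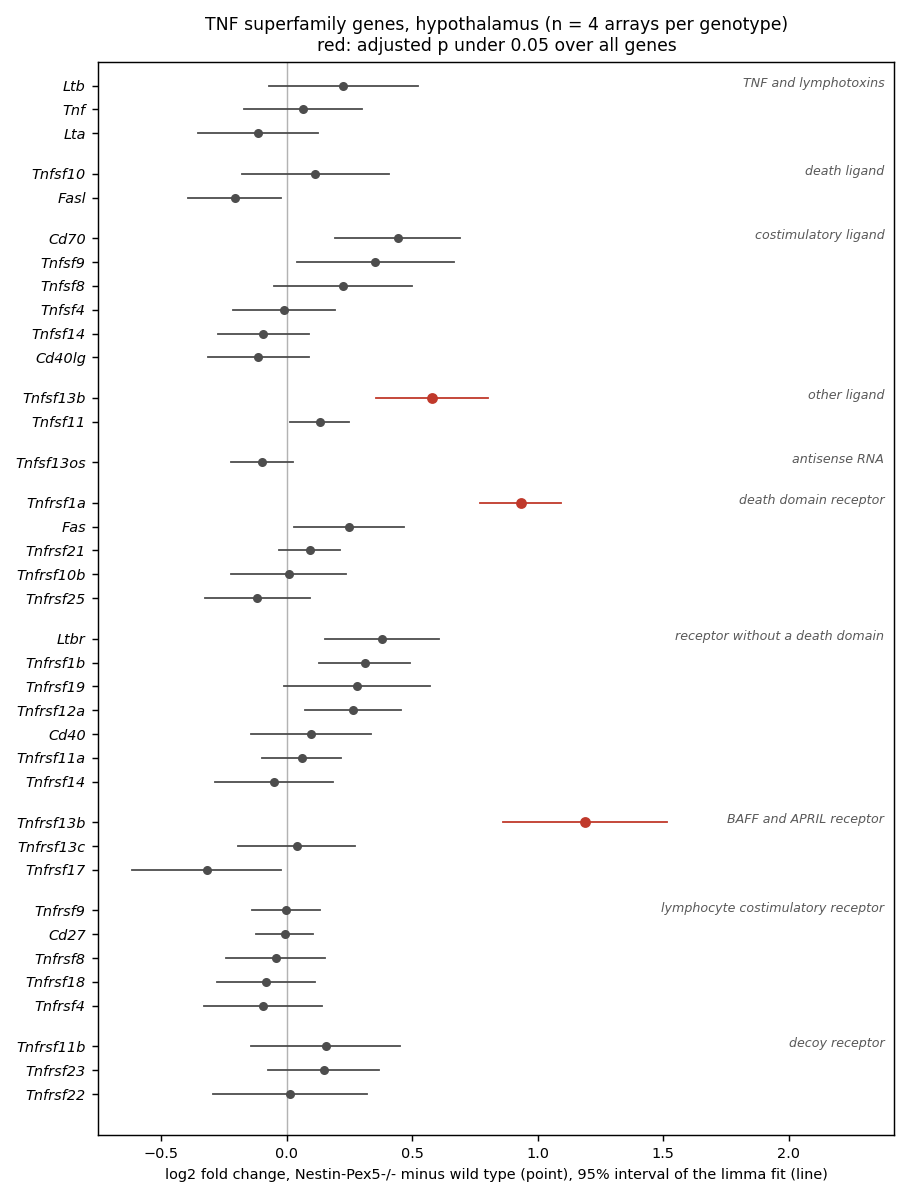
Difference in log2 value, *Nestin-Pex5*-/- minus wild type (horizontal axis), for each of the 37 members, ordered by class, with the 95% interval of the limma fit as a line (n = 4 arrays per genotype). *Tnfrsf13b*, *Tnfrsf1a* and *Tnfsf13b*, in red, are the members past the threshold, at 1.19, 0.93 and 0.58, and the other points lie between -0.32 and 0.44.

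In 7 members the genotypes had no overlap between their arrays. In 6 of them every *Nestin-Pex5*-/- array lay above every wild type array (16.2% of the members, against 6.63% of all genes), namely the 3 called genes, *Tnfrsf1b*, *Tnfrsf12a* and *Tnfsf11*. In *Fasl* every *Nestin-Pex5*-/- array lay below (2.70% of the members, against 4.51% of all genes). Wild type replicate 4 was the highest of the wild type arrays in 26 of the 37 members, or 70.3%, against 52.2% of all genes and 58.4% of the genes below the median level. It was the lowest in 2. The mean of 5 choroid plexus genes was 7.67 in this array and 9.70 to 10.13 in wild type replicates 1 to 3, and the mean of 7 oligodendrocyte genes was 12.17 against 11.46 to 11.70. Their part in the results was not tested. Without wild type replicate 4, 7 members were called higher in place of 3 (18.9% of the members, against 5.94% of all genes without that array) and none lower (1.82% of all genes). The 4 added were *Cd70*, *Ltbr*, *Tnfrsf1b* and *Tnfsf9*, with adjusted p from limma of 0.0140, 0.00404, 0.0265 and 0.0125.

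*Tnf* and the genes of the lymphotoxins did not pass the test. *Tnf* was at 6.17, 6.16, 6.28 and 6.52 in the wild type arrays. In the *Nestin-Pex5*-/- arrays it was at 6.11, 6.41, 6.49 and 6.38. The genotypes overlapped throughout, and the highest of the 8 values was in wild type replicate 4 and the lowest in *Nestin-Pex5*-/- replicate 7. The means were 6.28 ± 0.17 and 6.35 ± 0.16 (SD, n = 4 each), a fold of 1.05 with a 95% interval of 0.888 to 1.23 (adjusted p = 0.803 from limma). The exact two-sided permutation test gave p = 0.571. *Tnf* was read by 1 probe set, below the median level over genes. How much of its value is background was not measured, so the interval does not bound the change of the transcript itself. *Lta*, which encodes the secreted lymphotoxin made mainly by lymphocytes, was at 0.924-fold (adjusted p = 0.633), with 4.97 to 5.41 in wild type and 4.88 to 5.11 in *Nestin-Pex5*-/- arrays. *Ltb*, whose product anchors lymphotoxin at the cell surface, was at 1.17-fold (adjusted p = 0.435) and was highest in *Nestin-Pex5*-/- replicate 8, at 6.20 against 5.56 to 5.76 in the other arrays of that genotype. These 3 genes stand side by side on chromosome 17 of GRCm38, with *Ltb* from 35194507 to 35196305, *Tnf* from 35199367 to 35202007 and *Lta* from 35203165 to 35205578, and none of them was called.

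Of the receptors of TNF, *Tnfrsf1a* rose and had the smallest adjusted p of the family. *Tnfrsf1a* was at 8.58, 8.50, 8.57 and 8.77 in the wild type arrays and at 9.43, 9.59, 9.58 and 9.56 in the *Nestin-Pex5*-/- arrays. All *Nestin-Pex5*-/- arrays lay clear of all wild type arrays, and the gap between the highest wild type and the lowest *Nestin-Pex5*-/- array was wider than the spread within either genotype. The means were 8.61 ± 0.12 and 9.54 ± 0.073 (SD, n = 4 each), a log2 fold change of 0.93 with a standard error of 0.071 (adjusted p = 3.95e-05 from limma, exact permutation p = 0.0286, two-sided, the smallest that 4 mice against 4 allow). In order of log2 fold change the gene ranked 248 among all 18194. The call held under each of the 19 alternative settings, with log2 fold changes between 0.80 and 0.99. *Tnfrsf1a* lies on chromosome 6 of GRCm38 from 125349723 to 125362483, next in the family to *Ltbr* (125306571 to 125313885) and *Cd27* (125232620 to 125237136), which had log2 fold changes of 0.38 and -0.0088 and were not called.

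*Tnfrsf1b* was at 6.53, 6.27, 6.46 and 6.61 in the wild type arrays and at 6.90, 6.72, 6.75 and 6.74 in the *Nestin-Pex5*-/- arrays. The groups did not overlap, but wild type replicate 4 came within a small distance of *Nestin-Pex5*-/- replicate 8. The log2 fold change of 0.31 (standard error 0.081, fold 1.24) missed the threshold on this probe set (adjusted p = 0.0658 from limma). A dimmer probe set of the gene gave 1.43-fold, also without overlap (adjusted p = 0.00499 from limma, fitted on every probe set). With both probe sets averaged the gene passed (adjusted p = 0.00125). The log2 value of *Tnfrsf1a* less that of *Tnfrsf1b*, a description chosen after the values were seen and not tested, was 2.05 to 2.24 in wild type and 2.54 to 2.87 in *Nestin-Pex5*-/- arrays, a shift of 0.62. With the dimmer *Tnfrsf1b* probe set the shift was 0.42 and the genotypes overlapped, so whether they lay apart depended on the probe set.

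The 250 bases before the RefSeq start of both TNF receptor genes and of *Ltb* are given here, since *Tnfrsf1a* was called, *Tnfrsf1b* was not on its main probe set, and the window of *Ltb*, the neighbour of *Tnf*, held a match to the consensus named below. They are RefSeq sequence of GRCm38.p6 from the strand of the gene, at chr6:125349473-125349722 for *Tnfrsf1a*, chr4:145246871-145247120 for *Tnfrsf1b* and chr17:35194257-35194506 for *Ltb*. Capitals mark a match to the consensus of NF-kB, 10 letters long.
Tnfrsf1a: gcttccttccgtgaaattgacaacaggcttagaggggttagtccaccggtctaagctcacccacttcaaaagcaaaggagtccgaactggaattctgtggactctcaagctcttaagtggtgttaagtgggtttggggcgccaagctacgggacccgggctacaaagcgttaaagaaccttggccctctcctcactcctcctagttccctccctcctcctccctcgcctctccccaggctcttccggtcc
Tnfrsf1b: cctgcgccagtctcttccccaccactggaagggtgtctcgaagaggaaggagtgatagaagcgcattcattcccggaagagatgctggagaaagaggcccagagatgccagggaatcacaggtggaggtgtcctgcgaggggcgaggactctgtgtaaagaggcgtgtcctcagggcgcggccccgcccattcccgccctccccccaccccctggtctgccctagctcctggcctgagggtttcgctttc
Ltb: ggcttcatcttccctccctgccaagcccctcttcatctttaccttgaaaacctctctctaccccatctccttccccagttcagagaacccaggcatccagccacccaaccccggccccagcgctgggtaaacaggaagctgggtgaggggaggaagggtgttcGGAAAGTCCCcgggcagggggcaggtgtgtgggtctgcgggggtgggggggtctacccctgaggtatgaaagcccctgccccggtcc
Both strands of each promoter window were searched for this consensus and for the core GAGGAAGT, bound by PU.1, a transcription factor of myeloid cells. The 2 patterns share no required stretch. The NF-kB consensus was present in 7.25% of 32851 mouse promoters of this length (8.23% of 27025 genes) and in 4 of the 28 members with a promoter in the table. Those were *Ltb*, with the match starting 87 bases before the start site on the opposite strand, *Tnfrsf25*, *Tnfrsf8* and *Tnfrsf9*, and none of them was called higher. The PU.1 core was present in 2.44% of promoters and in 0 of the 28 members. A match is a run of letters only, and its absence says no more than that these letters are not in this window.

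A class of 7 receptors without a death domain, *Tnfrsf1b* among them, had the highest median of the receptor classes. The receptors of BAFF, the costimulatory receptors of lymphocytes and the decoy receptors formed classes of their own. The median therefore does not cover every receptor that lacks this domain. The median log2 fold change of these 7 genes was 0.26, and 6 of them were above 0, or 4 of them with the arrays scaled to *Actb*. *Ltbr*, the receptor for membrane lymphotoxin and LIGHT, was at 6.97, 6.87, 6.83 and 7.28 in the wild type arrays and at 7.32, 7.25, 7.47 and 7.43 in the *Nestin-Pex5*-/- arrays. The overlap came from wild type replicate 4 alone, which lay above *Nestin-Pex5*-/- replicate 8 (1.30-fold, adjusted p = 0.0751 from limma). *Tnfrsf12a*, which encodes Fn14, the receptor of TWEAK, did not overlap, with 7.66 to 7.94 in wild type and 7.99 to 8.29 in *Nestin-Pex5*-/- arrays. Its fold of 1.20 missed the threshold (adjusted p = 0.139), and its other probe set gave 1.19-fold without overlap. *Tnfrsf19*, known as TROY and found on glia, was at 9.05 to 9.28 in wild type and 9.11 to 9.81 in *Nestin-Pex5*-/- arrays, with *Nestin-Pex5*-/- replicate 7 below most wild type arrays (1.21-fold, adjusted p = 0.318). Its other probe sets gave 1.01-fold and 1.20-fold. The remaining members of the class were *Cd40* on antigen presenting cells (1.07-fold), *Tnfrsf11a*, which encodes RANK (1.04-fold), and *Tnfrsf14*, which encodes HVEM (0.966-fold), and none of them passed.

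Apart from *Tnfrsf1a*, no receptor with a death domain was called. *Fas* was at 5.22 to 5.54 in wild type and 5.53 to 5.89 in *Nestin-Pex5*-/- arrays, an overlap of less than 0.1 (1.19-fold, adjusted p = 0.233 from limma). *Tnfrsf21*, which encodes DR6 and was described for its bright probe set, was at 10.16 to 10.27 in wild type and 10.27 to 10.37 in *Nestin-Pex5*-/- arrays. Its fold was 1.07 with a 95% interval of 0.98 to 1.16 (adjusted p = 0.438), an interval that leaves out the fold of *Tnfrsf1a*. *Tnfrsf10b*, the mouse receptor of TRAIL, was at 1.01-fold, and *Tnfrsf25*, which encodes DR3, was at 0.922-fold. The decoy receptors, which bind ligand without signalling death, did not pass either. The log2 fold changes were 0.15 for *Tnfrsf11b* (osteoprotegerin), 0.15 for *Tnfrsf23* and 0.014 for *Tnfrsf22*. The last 2 genes are close relatives, and a probe set that both share was at 1.07-fold. The dimmer probe set of *Tnfrsf11b* was at 1.67-fold with wide spread (adjusted p = 0.390 over all probe sets).

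**Figure D2:**
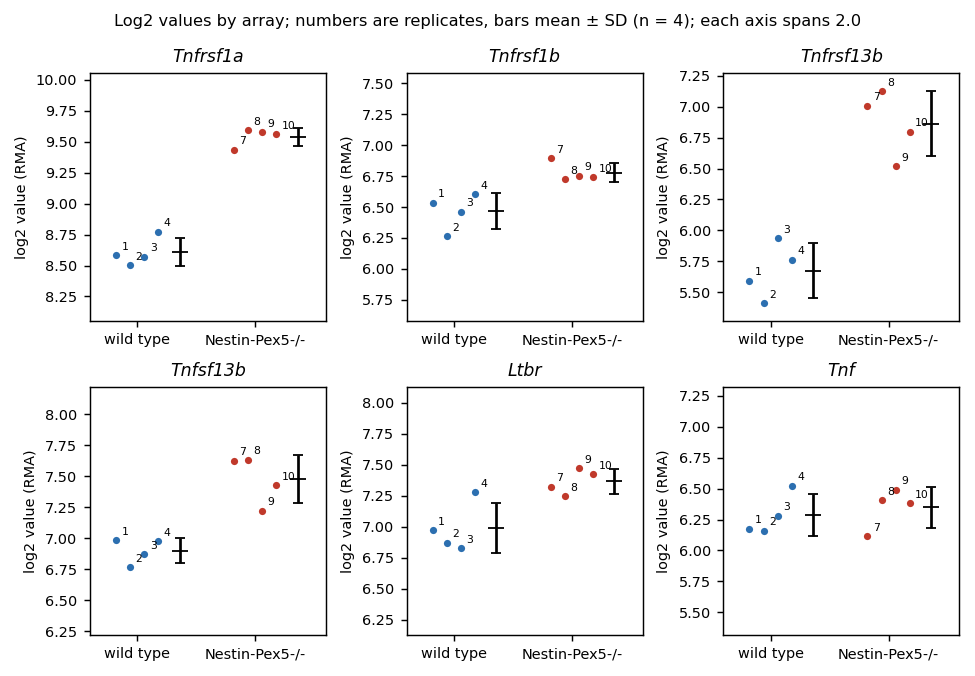
Log2 value (vertical axis, each spanning 2.0) of *Tnfrsf1a*, *Tnfrsf1b*, *Tnfrsf13b*, *Tnfsf13b*, *Ltbr* and *Tnf* in each array, wild type in blue and *Nestin-Pex5*-/- in red, with replicate numbers and the mean ± SD of the 4 arrays of a genotype. The genotypes lie apart in the first 4 genes, *Ltbr* overlaps through wild type replicate 4 at 7.28, and *Tnf* overlaps in full.

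BAFF and its receptor TACI rose together, while its other receptors did not pass. *Tnfrsf13b* (TACI), on chromosome 11 of GRCm38 from 61126283 to 61153170, was at 5.59, 5.41, 5.94 and 5.76 in the wild type arrays and at 7.01, 7.13, 6.52 and 6.80 in the *Nestin-Pex5*-/- arrays. The groups lay apart, with *Nestin-Pex5*-/- replicate 9 the lowest of its genotype. The means were 5.68 ± 0.23 and 6.86 ± 0.27 (SD, n = 4 each), a log2 fold change of 1.19 with a standard error of 0.15 (adjusted p = 0.00102 from limma, exact permutation p = 0.0286, two-sided). It ranked 179 among all genes by log2 fold change and was the largest change of the family. The call held under the 18 alternative settings that kept the gene, and the setting that left out dim probe sets left it out.

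*Tnfsf13b* (BAFF), on chromosome 8 from 10006229 to 10036000, was at 6.99, 6.77, 6.87 and 6.98 in the wild type arrays and at 7.63, 7.63, 7.22 and 7.43 in the *Nestin-Pex5*-/- arrays. As for TACI, *Nestin-Pex5*-/- replicate 9 was the lowest of its genotype and replicates 7 and 8 were the highest, and the groups did not overlap. The same pairs of *Nestin-Pex5*-/- arrays stood apart on the third principal component, which held 12.8% of the variance, where replicate 7 was at 14.5, replicate 8 at 10.6, replicate 9 at -12.1 and replicate 10 at -12.0. The mean of 10 pericyte and meningeal genes was no higher than 8.15 in the first pair and no lower than 8.84 in the other, and the part of this split in the values of both genes was not tested. The means of *Tnfsf13b* were 6.90 ± 0.10 and 7.48 ± 0.20 (SD, n = 4 each), a log2 fold change of 0.58 with a standard error of 0.099 (adjusted p = 0.0082 from limma, exact permutation p = 0.0286, two-sided). The rise rested on the brightest of 3 probe sets. The dimmer ones were at 1.10-fold and 1.01-fold (adjusted p of 0.733 and 0.926 from limma, fitted on every probe set), and with the mean of the 3 the log2 fold change was 0.25 and the call was lost (adjusted p = 0.123). It was also lost with an equal-variance test for each gene (adjusted p = 0.0562).

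The receptors that share BAFF with TACI are those of mature B cells and plasma cells. *Tnfrsf13c* (BAFF receptor) was at 5.19, 4.94, 5.08 and 5.49 in the wild type arrays and at 5.24, 5.16, 5.24 and 5.22 in the *Nestin-Pex5*-/- arrays, all within the wild type range (1.03-fold, 95% interval 0.875 to 1.21, adjusted p = 0.882 from limma). *Tnfrsf17* (BCMA) was at 4.21, 4.22, 4.50 and 4.63 in the wild type arrays and at 3.76, 4.22, 4.28 and 4.03 in the *Nestin-Pex5*-/- arrays. Its fold was 0.801 and the groups overlapped (adjusted p = 0.263). The log2 value of *Tnfrsf13b* less that of *Tnfrsf13c* was 0.28 to 0.85 in wild type and 1.28 to 1.96 in *Nestin-Pex5*-/- arrays, a shift of 1.15. This contrast too was chosen after the values were seen and was not tested.

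Markers of B cells were measured in the same arrays as TACI and BAFF. Of 8 measured genes of B cells and plasma cells none was called by limma in either direction, 1 was higher at an unadjusted p under 0.05, and their mean level was 5.02 to 5.24 in wild type and 5.01 to 5.28 in *Nestin-Pex5*-/- arrays. *Ms4a1*, *Cd79a* and *Pax5*, which define the lineage, were at 0.975-fold, 0.998-fold and 0.987-fold, and *Cd79b* was at 1.12-fold without overlap (adjusted p = 0.200 from limma). *Jchain* was at 1.16-fold, with 6.02 in *Nestin-Pex5*-/- replicate 9 and at most 5.25 in wild type arrays. *Blk* was at 1.01-fold, *Mzb1* at 0.952-fold and *Cr2* at 0.863-fold. The genes of this list were named after their values were seen. Of 10 T cell genes none was called and none reached an unadjusted p under 0.05, with means of 5.01 to 5.21 and 4.97 to 5.14. Markers of microglia and macrophages rose in the same arrays, where 14 of 15 were higher with a median log2 fold change of 2.16. Their mean level was 7.89 to 8.13 in wild type and 9.90 to 10.24 in *Nestin-Pex5*-/- arrays, with *C1qb* at 9.40-fold, *C1qc* at 9.34-fold, *Adgre1* at 7.99-fold and *C1qa* at 7.64-fold. The part of microglia in the rise of *Tnfrsf1a*, *Tnfrsf13b* and *Tnfsf13b* was not tested.

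Among the ligands other than BAFF none passed the threshold. *Cd70*, the ligand of CD27, was at 4.36, 4.56, 4.61 and 4.84 in the wild type arrays and at 5.05, 5.15, 5.14 and 4.80 in the *Nestin-Pex5*-/- arrays. The groups overlapped only between wild type replicate 4 and *Nestin-Pex5*-/- replicate 10 (1.36-fold, adjusted p = 0.0586 from limma). Without either of these arrays the gene was called, with an adjusted p of 0.0140 without wild type replicate 4 and 0.0359 without *Nestin-Pex5*-/- replicate 10. *Tnfsf9*, the ligand of the costimulatory receptor encoded by *Tnfrsf9*, was at 4.99 to 5.12 in wild type replicates 1 to 3, at 5.60 in replicate 4 and at 5.38 to 5.70 in the *Nestin-Pex5*-/- arrays (1.28-fold, adjusted p = 0.236). *Tnfsf11* (RANKL), which drives osteoclast formation, was at 4.35, 4.35, 4.35 and 4.41 in the wild type arrays and at 4.56, 4.44, 4.46 and 4.52 in the *Nestin-Pex5*-/- arrays. The groups did not overlap but differed by 0.13 on the log2 scale (adjusted p = 0.243), and the dimmer probe set was at 0.947-fold. *Cd70*, *Ltbr*, *Tnfsf9* and *Fas* were described after their values were seen.

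*Fasl*, the death ligand of cytotoxic cells, was at 4.67, 4.86, 4.74 and 4.96 in the wild type arrays and at 4.64, 4.44, 4.65 and 4.67 in the *Nestin-Pex5*-/- arrays. The groups lay apart by less than 0.01, and replicate 8 was far below the other *Nestin-Pex5*-/- arrays (0.866-fold, adjusted p = 0.236 from limma). Its dimmer probe set was at 0.958-fold and overlapped. *Tnfsf10* (TRAIL) was at 1.08-fold on its main probe set and at 1.13-fold on both others. The costimulatory ligands *Tnfsf8* (1.17-fold), *Tnfsf4* (0.993-fold), *Tnfsf14* (0.938-fold) and *Cd40lg* (0.925-fold) did not pass, nor did the antisense *Tnfsf13os* (0.934-fold). For TWEAK and APRIL only probe sets shared by several genes were read, and they were not counted among the members. A probe set annotated to *Tnfsf12* (TWEAK) and *Tnfsfm13* had a log2 fold change of 0.0059. Another, annotated to *Tnfsf13* (APRIL) as well, was at -0.11, so neither value belongs to a single ligand. *Tnfsf15* and *Tnfsf18* were not analysed here.

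None of the costimulatory receptors of lymphocytes was called. Their 5 log2 fold changes lay between -0.094 and -0.0042, none above 0, although 1 rose above 0 on quantile normalization again and 3 did with arrays weighted. *Tnfrsf4* (OX40) was at 7.16 to 7.55 in wild type and 7.08 to 7.44 in *Nestin-Pex5*-/- arrays (0.937-fold, adjusted p = 0.692 from limma). *Tnfrsf18* (GITR) was at 0.944-fold, *Tnfrsf8* (CD30) at 0.970-fold, *Cd27* at 0.994-fold and *Tnfrsf9* at 0.997-fold. The probe sets of *Tnfrsf9* disagreed, since the dimmer ones lay at 0.907-fold and 1.14-fold, each without overlap and neither past the threshold (adjusted p = 0.392 and 0.268 over all probe sets).

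Ligands and receptors were then set side by side in 24 listed pairs, of which 19 had both genes measured. In 1 pair, BAFF with TACI, both were called higher, although the call of BAFF rested on its brightest probe set, as given above. In 2 pairs, *Tnf* and *Lta* with *Tnfrsf1a*, the receptor alone was called, and in 2 pairs, BAFF with its other receptors, the ligand alone. In the other 14 pairs neither was called. The pairs share genes and are not independent of each other. The plot of the pairs shows the *Tnfrsf1a* point far from those of its ligands.

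**Figure D3:**
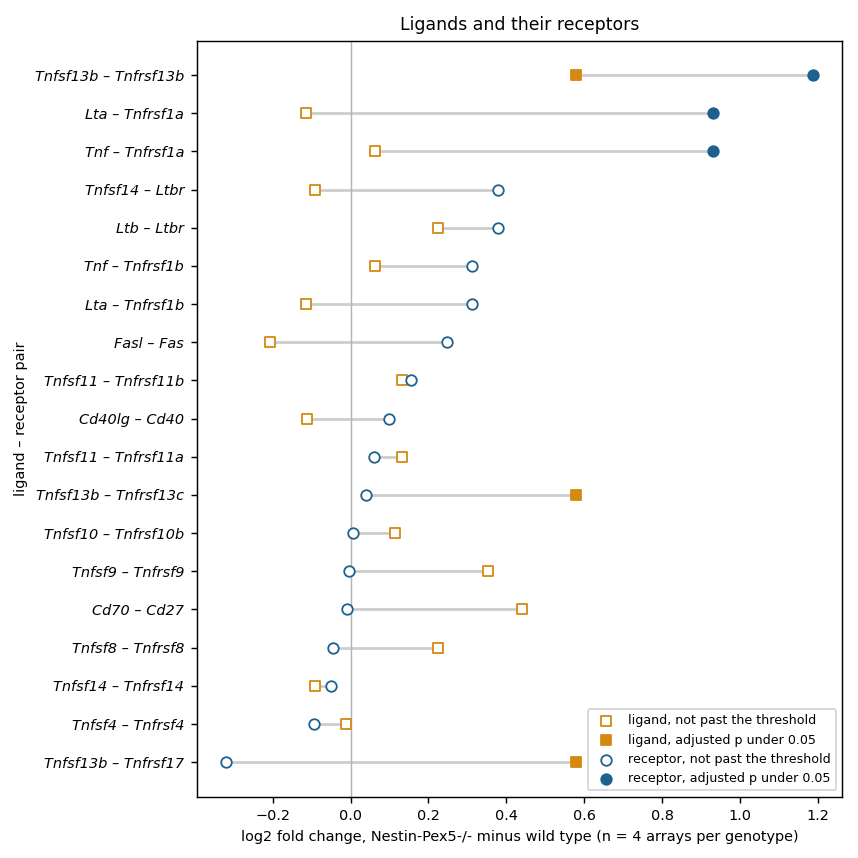
Difference in log2 value, *Nestin-Pex5*-/- minus wild type (horizontal axis, n = 4 arrays per genotype), for the ligand (square) and the receptor (circle) of the 19 pairs with both genes measured, filled where the adjusted p was under 0.05. The pair of *Tnfsf13b* and *Tnfrsf13b* is filled on both sides, at 0.58 and 1.19, and *Tnfrsf1a* is at 0.93 with *Tnf* at 0.06 and *Lta* at -0.11.

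Downstream of the receptors, 5 of 34 measured adaptors and enzymes of TNF signalling were higher and none was lower by limma (11 and 1 at an unadjusted p under 0.05). This is 14.7%, where 3.98% of all genes were called higher, with a median log2 fold change of 0.08. By an unadjusted p under 0.05, 8.85% of all genes were higher and 8.01% lower. *Casp8*, the protease of death receptors, rose from 6.62 ± 0.18 to 7.62 ± 0.16 (SD, n = 4 each), 1.99-fold. *Birc3* (cIAP2), a ubiquitin ligase that restrains cell death, rose 1.64-fold, and *Tnfaip3* (A20), the deubiquitinase that ends NF-kB signalling, rose 1.61-fold. *Adam17*, the protease that sheds TNF and its receptors from the cell surface, rose 1.41-fold. *Cflar*, which encodes the caspase-8 inhibitor c-FLIP, rose 1.30-fold. The adaptors that bind the receptors directly did not pass, with *Tradd* at 1.24-fold, *Fadd* at 1.06-fold and *Traf2* at 1.12-fold. These adaptors, like *Cflar*, were named after their values were seen.

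Of 10 measured subunits and inhibitors of NF-kB 4 were higher and none was lower (6 and 0 at an unadjusted p under 0.05), with a median log2 fold change of 0.24. They were *Nfkbiz*, an inducible nuclear cofactor (2.96-fold), the inhibitor *Nfkbie* (1.99-fold), the nuclear cofactor *Bcl3* (1.79-fold) and *Relb*, the subunit of the alternative route (1.44-fold). Of 17 measured genes that TNF is known to induce 8 were higher and none was lower (10 and 0 at an unadjusted p under 0.05), with a median log2 fold change of 0.22. The chemokine gene *Cxcl10* rose from 5.36 ± 0.24 to 8.04 ± 0.40 (SD, n = 4 each), 6.39-fold, and the adhesion molecule gene *Icam1* rose 4.12-fold. *Il1b*, which encodes interleukin-1 beta, rose 2.60-fold and the monocyte attractant gene *Ccl2* 1.97-fold. These genes also respond to interferon and to toll-like receptors, and what induced them was not tested. Across all genes 3.98% were called higher. By an unadjusted p under 0.05, 8.85% of all genes were higher and 8.01% lower. The listed TNF-induced genes that were not called lay between 0.984-fold (*Sod2*) and 1.17-fold (*Ier3*), with the chemokine gene *Cxcl1* at 0.992-fold. These were named after their values were seen. The part of microglia, whose markers rose in the same arrays, was not tested here either. Of the 5 relatives outside the rule, *Eda*, *Edar*, *Eda2r*, *Ngfr* and *Relt*, none was called in either direction, 1 was lower at an unadjusted p under 0.05, and the log2 fold changes lay between -0.22 and 0.08.

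**Figure D4:**
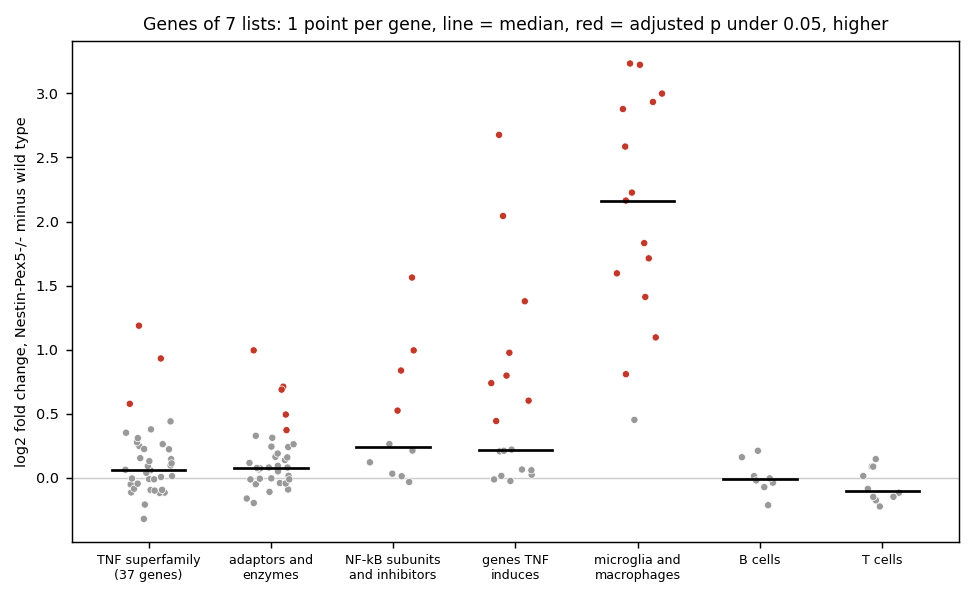
Difference in log2 value, *Nestin-Pex5*-/- minus wild type (vertical axis, n = 4 arrays per genotype), for the genes of 7 lists. Each point is a gene, lines mark the medians, and genes called higher are red. The median is 0.06 in the TNF superfamily and 2.16 in the markers of microglia and macrophages, and no gene of the B cell or T cell list is called.

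The marker lists of the other cell types that the tissue can hold had median log2 fold changes between -0.25 and 0.45, against 2.16 for microglia. Single genes among them, *Gfap* at 2.76 and *Itgax* at 2.63, lay above the microglia median. Of 8 astrocyte genes 2 were higher, *Gfap* 6.76-fold and *Aqp4* 2.15-fold. Of 5 dendritic cell genes 1 was higher, *Itgax*, at 6.18-fold, which microglia can also express, and of 4 genes of oligodendrocyte precursors 1 was higher, *Gpr17*, at 1.92-fold. No gene was called in either direction by limma among 7 oligodendrocyte, 7 neuronal, 15 hypothalamic neuronal, 9 endothelial, 10 pericyte and meningeal, 6 NK cell, 7 neutrophil and monocyte and 5 choroid plexus genes. At an unadjusted p under 0.05 by limma, 6 of the oligodendrocyte genes were higher. By the same measure 1 neuronal, 2 hypothalamic, 2 pericyte and meningeal and 2 neutrophil and monocyte genes were lower. So were 1 astrocyte gene (*Fgfr3*) and 1 dendritic cell gene (*Zbtb46*). Over all genes 8.85% were higher and 8.01% lower by this measure. The part of these cells in the results of the family was not tested.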

How the data were processed

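Hypothalamus RNA of 4 wild type and 4 *Nestin-Pex5*-/- mice was hybridised to 1 whole-genome Affymetrix mouse GeneChip per mouse. The authors deposited log2 values made with RMA, which corrects background, quantile-normalizes the arrays and summarises probes into probe sets. The version of RMA, how probe sets were defined and whether any were filtered are not given in the sources used here. RMA brings the arrays to nearly 1 distribution, so a change shared by most genes would not be seen, and array medians lay between 6.70 and 6.84.

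Of the probe sets, 34958 carried 1 gene in the platform annotation, 932 several and 9211 none. Only those with 1 gene were used, and 34754 symbols were brought to RefSeq of GRCm38.p6 by gene identifier. A linear model with a genotype term was fitted to the values as deposited by lmFit and eBayes of limma 3.58.1 (R 4.3.3, two-sided), with Benjamini-Hochberg adjustment over 18194 genes. Single members were also compared by an exact permutation test over the 70 assignments of arrays. The fit was tested on simulated data. The 28 matched promoters are from RefSeq. Figures were drawn with matplotlib 3.10.9. Precision is limited by the number of arrays.

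The members, the pathway lists and the marker lists were chosen with earlier results of these data known. By rule, the text describes members past the threshold, members whose arrays do not overlap, *Tnf*, partners of called members and the 3 other members with the highest level, names every member once, and names up to 4 genes of each list. Within a list, genes were to be taken by size of change or, where none was called, by level. Most genes described beyond this rule are marked as chosen after their values were seen. *Ltb* and *Hcrt* carry no such mark and are not to be read as named in advance. The marker lists cover microglia and macrophages, T cells, B cells, NK cells, neutrophils and monocytes, dendritic cells, endothelium, pericytes and meningeal fibroblasts, astrocytes, oligodendrocytes and their precursors, neurons, hypothalamic neurons and choroid plexus. The 19 alternatives changed the filter on level, the choice of probe sets, the scaling of arrays, the settings of the test and its threshold, or left out 1 array.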

Additional observations from a re-analysis of the deposited data

Results flagged for a closer look

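Over the 37 members, 6 of 74 groups of 4 arrays held an array far from the other 3, where chance gives about 1 in 20 groups. For each, the gap of that array to the nearest one is given as a share of the range of its group, and values are on the log2 scale. In *Fasl*, *Nestin-Pex5*-/- replicate 8 was the lowest at 4.44, with a gap of 0.885 of the range. In *Tnfsf11*, wild type replicate 4 was the highest at 4.41, with a gap of 0.985, while the other wild type arrays lay at 4.35. In *Tnfrsf11b*, wild type replicate 4 was again the highest, at 5.26 (gap 0.870), and in *Tnfrsf9* wild type replicate 1 was the lowest at 6.35 (gap 0.854). In *Tnfrsf14*, *Nestin-Pex5*-/- replicate 9 was the highest at 5.28 (gap 0.896), and in *Tnfsf14* *Nestin-Pex5*-/- replicate 10 was the highest at 4.45 (gap 0.879). None of these 6 genes passed the threshold.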

How the results depend on the processing

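Of the values of single members under the 19 alternatives, 656 kept their side of the threshold, 15 passed it newly and 2 no longer did, both for *Tnfsf13b*. Of the 656, 45 changed sign, over 17 members that were not called and whose log2 fold changes were at most 0.11 in size. No called value changed direction. The number of members higher (3) was 8 with array weights and ranged from 3 to 7 when 1 array was left out, with 7 reached without wild type replicate 4. The number lower (0) was 2 with the arrays scaled to *Actb*, namely *Fasl* and *Tnfrsf17* (adjusted p = 0.0482 and 0.0426), and was 0 without any 1 array. Adaptors and enzymes higher (5) numbered 8 with trend and robust settings, 9 with array weights and 4 to 6 without 1 array, and those lower (0) numbered 1 with scaling to *Actb* and 1 with array weights. NF-kB genes and genes induced by TNF, 12 of 27 higher together, numbered 4 without probe sets below the median level, where 11 were tested, and 9 to 15 without 1 array.

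Scaling to *Actb*, itself 0.13 higher, moved the median log2 fold change of all genes from -0.03 to -0.16 and the share of higher genes among the calls from 83.4% to 33.2%. The number of members above 0 was then 15 in place of 23. That share was 72.9% with the arrays scaled to reference genes and 65.9% with array weights, and over all genes array weights called 1351 higher and 699 lower in place of 724 and 144. Of the 9 reference genes measured, *Gusb* was itself called higher (1.80-fold, adjusted p = 8.85e-05 from limma), while the median log2 fold change of the 9 was -0.08. The cause of the changes in these shares and counts was not tested. No paired analysis was possible because the genotypes share no replicate number.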
